A study of Homo sapiens with 12 samples.

Results

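The comparison set 3 libraries of cells given EZH2 and AKT inhibitors together, labelled Combo A, B and C, against 3 libraries of cells given docetaxel for 8 h, labelled doc8 A, B and C. These are 6 of the 12 libraries of the series, and each gene that passed a filter on low counts was tested, 17780 of 58735 entries. All libraries came from MDA-MB-468, an established line of triple-negative breast cancer with basal features. The combination cultures were held in tazemetostat, an inhibitor of the histone methyltransferase EZH2, for 5 days with passaging. They were then given 5 uM tazemetostat and 5 uM ipatasertib, an inhibitor of the AKT kinases, for 24 h in 6 cm plates with 2% FBS. The docetaxel cultures were seeded in 10 cm plates and, 24 h later, given 10 nM docetaxel for 8 h, and their serum was not stated. The remaining 6 libraries were vehicle (DMSO, with hours and medium not stated) and 24 h of 10 nM docetaxel. Drug, hours of exposure, preceding culture, plate and possibly serum all differed between the groups compared, so their parts in a difference cannot be told apart. No library had tazemetostat or ipatasertib alone, so the contributions of the inhibitors to the combination cannot be told apart either.

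EZH2 is the catalytic subunit of Polycomb repressive complex 2 (PRC2), which methylates lysine on histone H3 and keeps developmental genes silent. AKT acts below PI3-kinase, promotes growth and glucose use, and phosphorylates FOXO transcription factors so that they leave the nucleus. Docetaxel binds tubulin, stabilises microtubules and holds dividing cells in mitosis.

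The 6 libraries held 29820617 to 36831143 counts, and all 12 held 29820617 to 45807059. Mitochondrial transcripts took 8.49% ± 0.799 (SD, n = 3) of counts in the combination and 8.55% ± 0.409 (SD, n = 3) after docetaxel, a difference with an exact two-sided permutation p of 1, where 3 against 3 cannot go below 0.1. In a principal component analysis the first component held 67.2% of the variance and placed the combination libraries at 43.5 to 44.6 and the docetaxel 8 h libraries at -22.7 to -21.8. The labels do not say that letters A, B and C were separate cultures, so p-values rest on library-to-library spread alone, and that spread may be technical. Levels are in CPM, each gene's count relative to the TMM-scaled total of its library, and where values of both groups are set against each other the docetaxel 8 h libraries A, B and C come first and the combination libraries A, B and C second. Differences are log2 fold changes of the combination over docetaxel 8 h with their standard error, from the quasi-likelihood F-test of edgeR, and p-values were adjusted over all tested genes by the Benjamini-Hochberg method. A gene is called higher or lower where its adjusted p was under 0.05. By this rule 7 of 13 mitochondrial mRNAs were lower and none higher, or 3 lower with library totals in place of the TMM scaling.

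The groups differed in most of the transcriptome. Of 17780 genes, 11802 (66.4%) were called, 6101 (34.3%) higher and 5701 (32.1%) lower in the combination, and the median log2 fold change was 0.02. Called differences of at least 2-fold were 19.0% of the genes tested, 2692 higher and 683 lower. In 12023 of the 17780 genes the libraries of the 2 groups did not overlap. With library totals in place of the TMM scaling the calls were 7224 higher and 4452 lower, and the median over all tested genes shifted by 0.12 (log2). Every list below is to be read against these shares, since a member called in one direction is by itself common here. The same holds for a gene without overlap between the groups.

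**Figure D1:**
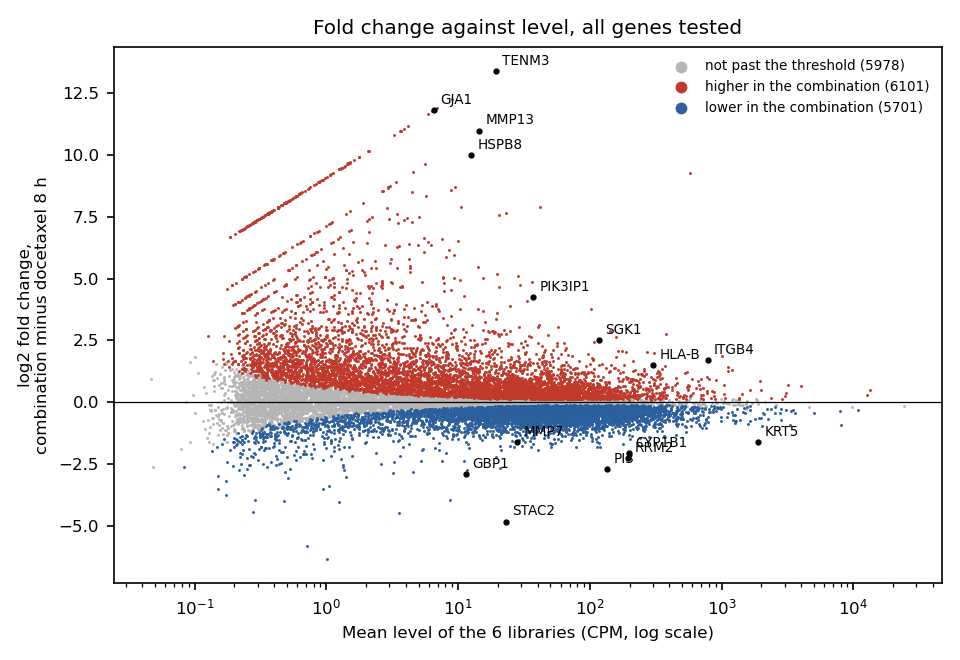
Each point is a tested gene, with the mean CPM of the 6 libraries on a log scale against the log2 fold change of the combination over docetaxel 8 h. Red points were called higher (6101) and blue points lower (5701). The largest rises lie among genes with few or no counts after docetaxel, which form the diagonal lines at the upper left.

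Direction varied with level, and a gene that passed the count filter only through the group where it was high had to differ, which bears on the counts of low genes here and in the metalloproteinase, HOX, class II, mesenchymal and marker lists below. Setting members with no docetaxel count at their bounds left the median of every list with such a member as it was. Every such bound lay above its list's median, so this could not have moved it. It does not bear on members that passed the filter only through the combination. Among 3568 genes averaging under 1 CPM over both groups, 1231 were higher and 286 lower, and among 2993 genes of 1 to 5 CPM the counts were 1423 and 423. Among 5697 genes of 20 to 100 CPM the balance was the opposite, 1599 higher and 2738 lower, and in 2105 genes above 100 CPM it was 497 and 1223. Long intergenic non-coding RNAs were mostly higher where called, 379 of 954 against 101 lower. Antisense genes gave 352 higher and 113 lower of 1062, but whether the libraries kept strand is not stated, so reads from an antisense gene and its partner may not be separated.

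Either group could be the one that stood apart. The 3 combination libraries lay above all 9 others in 4082 genes (22.96%) and below all of them in 3541 (19.9%). The 3 docetaxel 8 h libraries lay above all 9 others in 1853 genes (10.4%) and below all in 1540 (8.66%). The levels in DMSO and docetaxel 24 h are therefore given beside many genes. They are the same libraries in each such comparison and do not count as separate evidence.

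The largest rises were genes with almost no counts after docetaxel. TENM3, a teneurin of the cell surface that guides neuronal contacts (chr4:182143987-182803024 of GRCh38, plus strand), had no count in any docetaxel 8 h library and 39.2, 38.2 and 38.9 CPM in the combination. Against a floor of 3 counts over the docetaxel group it was at least 1217-fold higher. GJA1, the gap junction protein connexin 43 (chr6:121435577-121449727 of GRCh38, plus strand), had 12.5, 13.8 and 12.7 CPM in the combination and no count in the other 9 libraries, and was at least 408-fold higher. SATB1, a chromatin organiser, was at least 397-fold higher at 10.7, 13.2 and 14.1 CPM. For SHISA2, a regulator of FGF and Wnt receptors, the bound was 560-fold, and for SPANXB1 and AOC1, a diamine oxidase, it was 261-fold and 243-fold. HSPB8, a small heat shock protein of chaperone-assisted autophagy, had 2 counts over the docetaxel group and 2347 in the combination, a ratio of 1178 with a 95% exact counting interval of 326 to 9731. That interval covers counting error only. MAF, BASP1 and PRR9 each had 1 count over the docetaxel group and 569 to 1042 in the combination. Genes were ranked here only where the 3 libraries of each group did not overlap, so their lack of overlap was fixed by that rule.

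The largest falls started from moderate levels. STAC2, an adaptor of calcium channels (chr17:39210536-39225872 of GRCh38, minus strand), stood at 44.8, 42.7 and 45.1 CPM after docetaxel and 1.76, 1.62 and 1.27 in the combination (log2 fold change -4.83 ± 0.09 (SE), adjusted p = 2.15e-21). DMSO averaged 35.1 CPM and docetaxel 24 h 24.4, so the combination was the low group. PI3, the elastase inhibitor elafin, went from 260, 209.6 and 233 to 39.6, 32.7 and 35.1 CPM (log2 fold change -2.71 ± 0.08 (SE), adjusted p = 6.66e-18), and GBP1, an interferon-inducible GTPase, from 19.9, 19.8 and 20.5 to 2.51, 3.01 and 2.61 (log2 fold change -2.89 ± 0.10 (SE), adjusted p = 4.42e-17). S100A8, a calprotectin subunit, HAS3, a hyaluronan synthase, and CORO1A, an actin regulator, differed by -2.39, -2.88 and -2.38. KRT6A, a keratin of activated epidermis, had 36.6, 36.4 and 34.9 CPM after docetaxel and 6.34, 7.41 and 3.46 in the combination, but DMSO averaged 4.96, so docetaxel 8 h was the high group. Its near-identical neighbours KRT6B and KRT6C may share reads with it, and so may BOLA2B and EIF3CL with their paralogs. BOLA2B was at 1.63, 15 and 31.9 CPM after docetaxel and EIF3CL at 51, 4.29 and 5.24, a spread that leaves both values uncertain, and the EIF3CL call was lost without docetaxel library A.

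Matrix metalloproteinases, secreted or membrane-bound enzymes that cleave extracellular matrix, included several of the largest rises. Of the 17 members and inhibitors listed, 13 were tested, of which 10 were higher and 1 lower, with a median log2 fold change of 2.07. MMP13, a collagenase, was at 0, 0 and 0.0356 CPM after docetaxel and 29.6, 28.2 and 28.5 in the combination. Its 1 docetaxel count against 2700 gave a ratio of 2710 with a counting interval of 486 to 107100. MMP3, a stromelysin, and MMP12, the macrophage elastase, had no count in any of the other 9 libraries and were at least 228-fold and 230-fold higher. MMP1, the interstitial collagenase, was at 0.237, 0 and 0 against 21.7, 21.2 and 19.9 CPM (log2 fold change 7.89 ± 0.30 (SE), adjusted p = 3.35e-16). All 5 are in 1 gene cluster on chromosome 11, counting MMP10 (5.94), which had 2 docetaxel counts and a ratio of 72.3 with a counting interval of 19.7 to 602. MMP7, matrilysin, is in the same cluster and was lower, at 42.6, 40.9 and 43.4 CPM after docetaxel and 14.5, 12.7 and 14.7 in the combination (log2 fold change -1.60 ± 0.07 (SE), adjusted p = 1.19e-14). DMSO averaged 13.1 CPM and docetaxel 24 h 16.2, so docetaxel 8 h was the high group. MMP20, outside the rule for named genes and chosen after its value was seen, fell by 3.06 on the log2 scale from a mean of 0.918 CPM. Outside the cluster, MMP14, a membrane-bound member, was at 16.2, 15.4 and 15.7 against 54.1, 52.2 and 51.5 CPM (1.74), and the inhibitor TIMP2 at 61.7, 65.7 and 62.2 against 269, 260.4 and 265 (2.07), with no overlap in either.

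**Figure D2:**
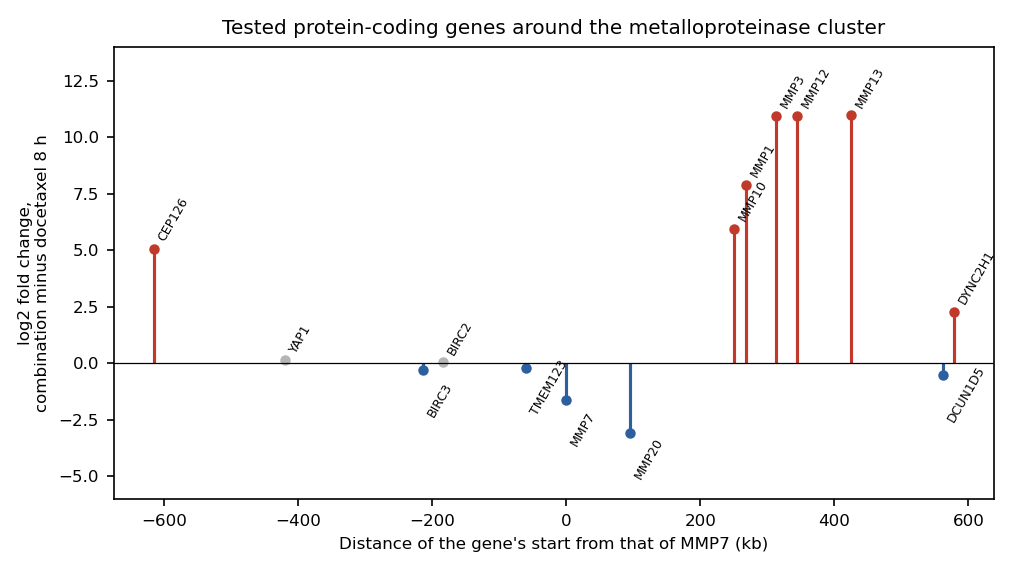
Points and stems give the log2 fold change of each tested protein-coding gene against the distance of its start from that of MMP7 in kb. MMP10, MMP1, MMP3, MMP12 and MMP13 lie 250 to 425 kb away and are raised (red), while MMP7 and MMP20 are lower (blue) and BIRC2 and YAP1 were not called (grey).

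RefSeq windows were found for MMP7 and MMP10. They are shown because, of 6 listed genes with a window, these 2 held the letters searched. These 2 cluster members moved in opposite directions. The 250 bases before each start (GRCh38.p14, both minus strand) are chr11:102530748-102530997 for MMP7 and chr11:102780629-102780878 for MMP10. Capitals mark TGANTCA, the letters of an AP-1 site, searched on both strands.
MMP7: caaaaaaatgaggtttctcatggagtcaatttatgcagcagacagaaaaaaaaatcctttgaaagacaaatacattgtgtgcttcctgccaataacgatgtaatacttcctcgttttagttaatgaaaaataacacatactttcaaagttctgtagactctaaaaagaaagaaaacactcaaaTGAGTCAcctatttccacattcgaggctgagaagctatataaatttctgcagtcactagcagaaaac
MMP10: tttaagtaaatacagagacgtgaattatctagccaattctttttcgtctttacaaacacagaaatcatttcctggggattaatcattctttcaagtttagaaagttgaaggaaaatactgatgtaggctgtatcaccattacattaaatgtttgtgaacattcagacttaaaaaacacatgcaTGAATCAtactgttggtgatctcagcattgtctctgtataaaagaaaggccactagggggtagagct
Each window held 1 match, whose first base lay 67 bases before the start, and the presence of a match was fixed by that choice. Of 27305 genes with a window, 8.06% held these letters, and of the 11576 tested genes with a window, 6.65%. A match is a description and not a bound site.

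Genes of DNA replication were lower in the combination throughout. All 38 tested members of the list were called lower (background 32.1%), with a median of -1.01. RRM2, the small subunit of ribonucleotide reductase, was at 329, 308 and 329.8 CPM after docetaxel and 71.1, 68.6 and 62.4 in the combination (log2 fold change -2.26 ± 0.05 (SE), adjusted p = 6.56e-20). CDC45, a helicase subunit, was at 80.6, 77.8 and 79 against 24.2, 23.7 and 25.2 CPM (log2 fold change -1.70 ± 0.05 (SE), adjusted p = 1.96e-17), and MCM10, an initiation factor, at 46, 48 and 47.8 against 13.9, 13.8 and 13.9 (log2 fold change -1.77 ± 0.06 (SE), adjusted p = 3.00e-17). CDC6, which loads the helicase, and GINS1, part of it, differed by -1.34 and -1.45. No library of one group reached a level of the other in these 5 genes. The difference had 2 sides, since the combination was below all 9 other libraries in 35 of the 38 members and docetaxel 8 h above all 9 others in 29. For RRM2 the DMSO mean was 176 CPM and the docetaxel 24 h mean 135. Thymidylate synthase TYMS (-1.21) was lower, and so were the transcription factors E2F1 (-1.23) and E2F2 (-0.95), which are not in this list.

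Genes of mitosis were also lower but by less, 35 of 39 lower and 1 higher with a median of -0.42. CCNA2, cyclin A2, was at 167, 174 and 168 against 88, 84.7 and 79.2 CPM (log2 fold change -1.01 ± 0.05 (SE), adjusted p = 7.89e-14), and KIF11, a spindle motor, at 103, 110.4 and 114 against 58.6, 62.6 and 57.4 (log2 fold change -0.87 ± 0.05 (SE), adjusted p = 5.50e-13). MKI67, the Ki-67 antigen, and PLK1, a mitotic kinase, differed by -0.76 and -0.54. Here docetaxel 8 h stood above all 9 other libraries in 30 of 39 members, and the combination below all in 5. PLK1 averaged 171 CPM in DMSO and 190.2 after docetaxel 24 h, both below the combination's 195, 192 and 192.

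Promoter windows are shown for 2 replication and 2 mitosis members, chosen by fold change among candidates whose 250 bases before the start hold the letters searched. For mitosis the window had to hold both TTTGAA and CCAAT. Some members were not candidates because of the chromosome they are on, so those shown need not have the largest fold changes. Capitals in the replication genes mark the E2F spellings TTTGGCGC, TTTCCCGC, TTTGCCGC and TTTCGCGC on either strand. GINS2 (chr16:85688955-85689204, minus strand) is a helicase subunit (log2 fold change -1.52). POLA2 (chr11:65261712-65261961, plus strand) is a subunit of the primase complex (-1.41). Capitals in the mitosis genes mark TTTGAA, the cell cycle homology region, and CCAAT, on either strand, which overlap once in MKI67. The windows are chr10:92592880-92593129, plus strand, for KIF11 and chr10:128126424-128126673, minus strand, for MKI67, all from RefSeq on GRCh38.p14.
GINS2: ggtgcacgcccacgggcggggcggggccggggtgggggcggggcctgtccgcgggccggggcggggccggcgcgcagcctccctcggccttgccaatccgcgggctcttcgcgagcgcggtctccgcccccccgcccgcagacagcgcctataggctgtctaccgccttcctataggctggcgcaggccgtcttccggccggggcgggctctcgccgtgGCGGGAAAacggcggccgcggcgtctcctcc
POLA2: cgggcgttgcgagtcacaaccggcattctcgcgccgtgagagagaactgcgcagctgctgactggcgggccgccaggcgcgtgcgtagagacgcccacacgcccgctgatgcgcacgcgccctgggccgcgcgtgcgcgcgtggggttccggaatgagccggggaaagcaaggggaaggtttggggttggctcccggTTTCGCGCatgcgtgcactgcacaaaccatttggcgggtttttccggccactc
KIF11: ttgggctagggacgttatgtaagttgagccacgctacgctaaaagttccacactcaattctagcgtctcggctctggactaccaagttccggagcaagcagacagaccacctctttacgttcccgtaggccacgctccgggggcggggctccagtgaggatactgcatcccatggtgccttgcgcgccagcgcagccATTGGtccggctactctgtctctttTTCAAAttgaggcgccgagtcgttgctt
MKI67: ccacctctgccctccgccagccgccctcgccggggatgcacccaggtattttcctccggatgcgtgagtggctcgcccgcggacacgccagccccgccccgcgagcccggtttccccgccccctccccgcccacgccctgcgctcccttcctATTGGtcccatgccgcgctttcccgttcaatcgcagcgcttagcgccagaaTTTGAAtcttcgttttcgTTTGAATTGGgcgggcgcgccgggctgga
The E2F spellings were in 12 of 33 replication genes with a window, 3 of 32 mitosis genes and 3.40% of all 27305 genes. A second set of spellings, with TTCCCGCC and TTTGGCGG in place of the last 2, was in 17 of the 33 replication genes and 5.41% of all. Over 300 bases, with the 50 after the start, the counts were 17 and 23 of 33, beside 3.99% and 6.24% of all genes. TTTGAA was in 18 of 32 mitosis genes, 1 of 33 replication genes and 16.1% of all. CCAAT was in 28 of 32, 19 of 33 and 37.0%. Among the 11576 tested genes with a window the shares over 250 bases were 5.41% and 8.77% for the sets of E2F spellings, 12.1% for TTTGAA and 40.7% for CCAAT.

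**Figure D3:**
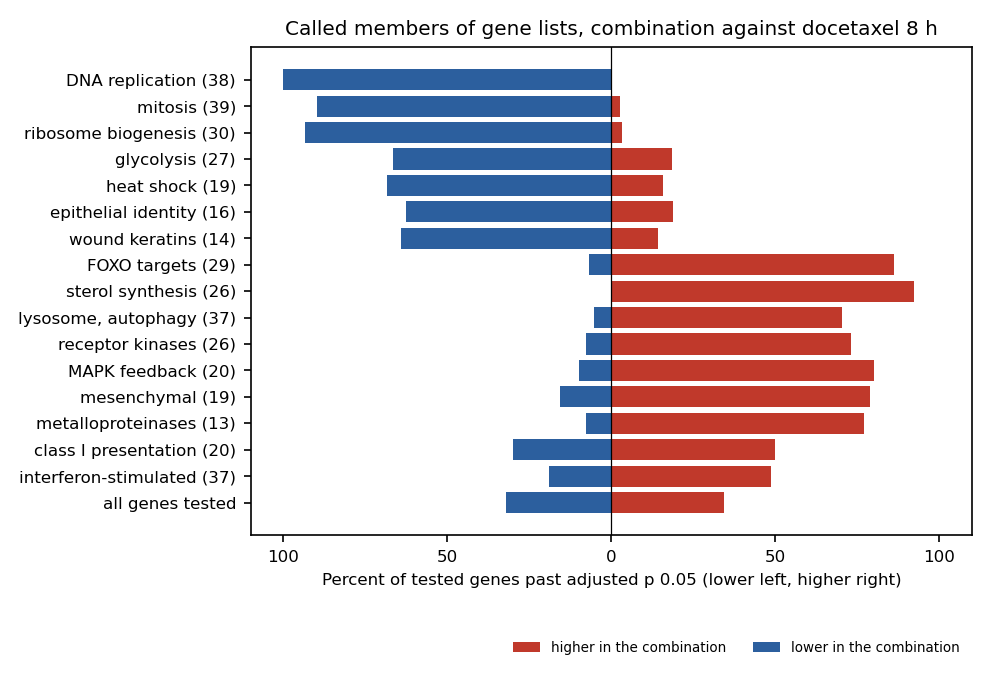
Bars give the percent of each list's tested genes (number in brackets) called lower (blue, left) or higher (red, right) in the combination, with all 17780 genes at the bottom. DNA replication lies wholly to the left, 38 of 38, and sterol synthesis to the right, 24 of 26.

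Ribosome biogenesis, the making of ribosomal RNA and its assembly, was lower in 28 of 30 members and higher in 1, with a median of -0.80. NCL, the nucleolar protein nucleolin, was at 962, 948 and 959 CPM after docetaxel and 479.6, 448 and 452 in the combination (log2 fold change -1.06 ± 0.05 (SE), adjusted p = 4.58e-15). LYAR, a nucleolar growth regulator, and MRTO4, a ribosome assembly factor, differed by -1.69 and -1.31. The combination was below all 9 others in 25 of 30. MYC, a transcription factor that drives growth genes, was at 195, 196 and 175 against 97.8, 98.6 and 109.6 CPM (log2 fold change -0.89 ± 0.05 (SE), adjusted p = 1.45e-12), and DMSO averaged 198. Genes of the cytosolic ribosome itself gave 6 higher and 21 lower of 61, with a median of -0.11, and these counts were not stable. They were 12 and 12 with library totals, 4 and 33 without combination library A or without docetaxel library B, and 10 and 15 without docetaxel library A. RPS10 was counted at 2.32 to 2.66 CPM after docetaxel, far under the other ribosomal genes named, and its value is uncertain.

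The lists of glycolysis, heat shock and antioxidant genes were lower on balance, and the hypoxia list was not. Glycolysis had 18 lower and 5 higher of 27, among them PGAM1 (-1.01), GPI (-0.95) and PGK1 (-0.81), which are enzymes of the pathway. PDK1, which restrains pyruvate dehydrogenase, was at 28.5, 32.6 and 30.2 against 14.5, 14.4 and 15.4 CPM (-1.04). Heat shock genes had 13 lower and 3 higher of 19, with the mitochondrial chaperones HSPD1 and HSPE1 at -1.03 and -1.33. With library totals glycolysis had 14 lower and 6 higher, and heat shock 9 and 4. The antioxidant list of NRF2 had 18 lower and 2 higher of 24, with GCLM, of glutathione synthesis, at -1.26 and the ferritin light chain FTL opposite at 1.03. Docetaxel 8 h was above all 9 other libraries in 13 of those 24. In the hypoxia list 10 were higher and 8 lower of 24, ADM (1.67) against CA9 (-2.03), and without combination library C the counts were 8 and 8.

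Known targets of FOXO factors were higher in 25 of 29 members and lower in 2, with a median of 0.76 (background 34.3% higher). PIK3IP1, an inhibitor of PI3-kinase (chr22:31281593-31292534 of GRCh38, minus strand), was at 3.46, 3.8 and 3.85 CPM after docetaxel and 73.7, 65.6 and 72.7 in the combination (log2 fold change 4.25 ± 0.08 (SE), adjusted p = 2.15e-21). IRS2, the insulin receptor adaptor, was at 72, 95.4 and 86.9 against 190.4, 238 and 231 CPM (log2 fold change 1.38 ± 0.09 (SE), adjusted p = 8.00e-12). PDK4, which restrains pyruvate dehydrogenase, was at 0.0888, 0.154 and 0.0356 against 8.45, 8.09 and 8.79 CPM (6.41). GABARAPL1, of the autophagosome, KLHL24 and FOXO1 itself differed by 1.5, 1.67 and 1.62. No libraries of the 2 groups overlapped in these genes. The combination was above all 9 others in 19 of 29, and docetaxel 8 h below all in 12. FOXO3 differed by 0.56 but averaged 144 CPM in DMSO against 121, 134 and 129 in the combination, where docetaxel 8 h was low. TXNIP had too few counts to be tested.

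**Figure D4:**
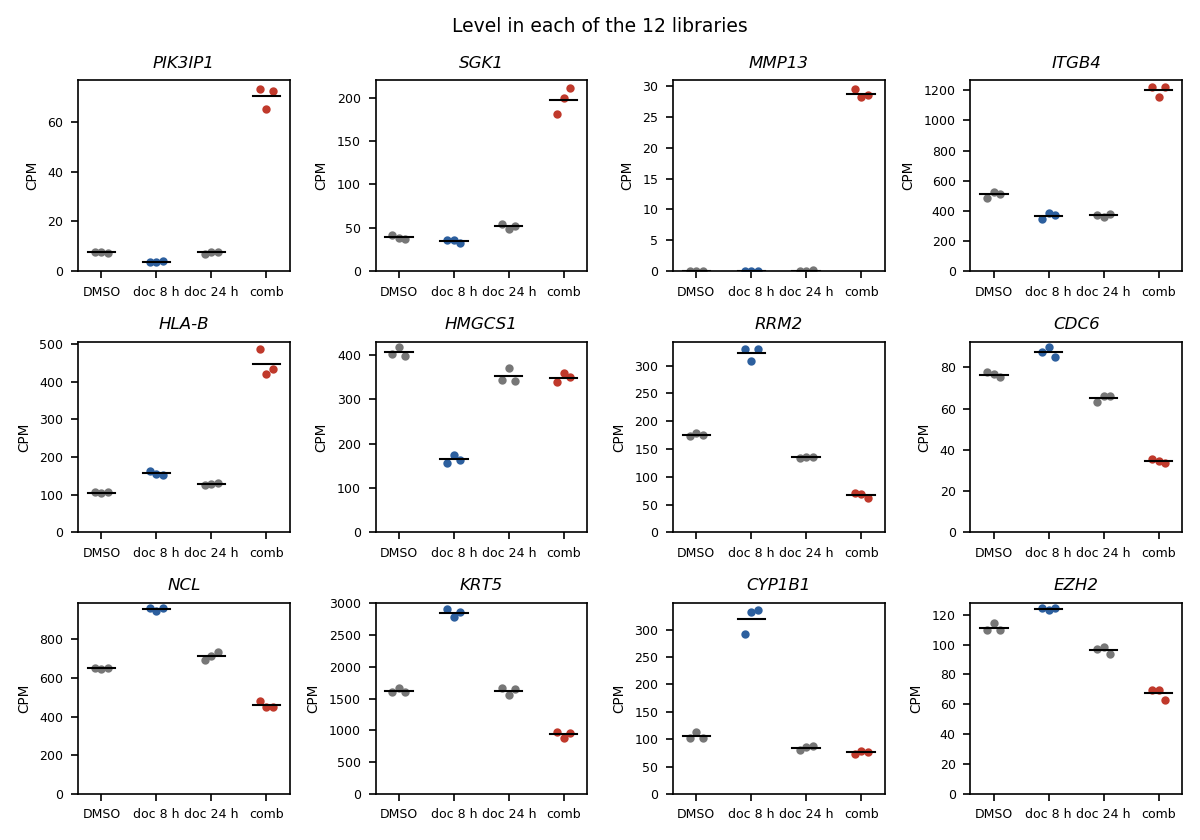
Each panel gives a gene's CPM, from 0, in the 3 libraries of DMSO, docetaxel 8 h (blue), docetaxel 24 h and the combination (red), with a line at the mean. PIK3IP1, SGK1, MMP13, ITGB4 and HLA-B are highest in the combination, while docetaxel 8 h is the lowest group for HMGCS1 and the highest for KRT5 and CYP1B1.

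Receptor tyrosine kinases were higher in 19 of 26 and lower in 2, with a median of 0.63. AXL, a receptor for GAS6, was at 1.09, 0.957 and 1.03 against 10.8, 10.2 and 10.5 CPM (log2 fold change 3.34 ± 0.15 (SE), adjusted p = 8.42e-15). ERBB3, a partner of HER2, was at 41.3, 44.3 and 42.3 against 72.6, 76.3 and 77 CPM (log2 fold change 0.82 ± 0.05 (SE), adjusted p = 2.53e-12), but DMSO averaged 67. IGF1R and EGFR differed by 1.07 and 0.66. Of 7 tested EGF family ligands, 6 were higher, including BTC (1.53) and AREG (0.98), and TGFA was at 35.6, 37 and 37 against 38.2, 38 and 36.6 CPM with adjusted p = 0.528. The PI3-kinase, AKT and mTOR list had no balance, 12 higher and 15 lower of 33, and 14 and 10 with library totals. AKT1 (-0.51) and AKT2 (-0.19) were lower. SGK1, a kinase related to AKT and a member of the same list, was at 36.2, 36 and 32.8 against 182, 200.1 and 212 CPM (log2 fold change 2.50 ± 0.07 (SE), adjusted p = 5.87e-19).

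Targets and feedback regulators of MAP kinase were higher in 16 of 20 and lower in 2, with a median of 0.97. DUSP10, a phosphatase, was at 5.06, 4.91 and 3.92 against 21, 22 and 21.9 CPM (log2 fold change 2.21 ± 0.09 (SE), adjusted p = 2.13e-15), ETV5, an ETS factor, at 8.32, 7.72 and 9.23 against 28.3, 29.6 and 28.9 (1.78) and DUSP4 at 1.12. DUSP4 averaged 104 CPM in DMSO and 104 after docetaxel 24 h against 119, 126 and 128 in the combination, and docetaxel 8 h was below all 9 others in 12 of the 20 genes. Immediate early genes were higher in 19 of 25 and lower in 2. JUN was at 142, 151 and 139.7 against 286, 314 and 364 CPM (1.15), KLF4 differed by 1.55 and ATF3 by 1.21, and docetaxel 24 h averaged 46.9 CPM of ATF3 against 30.7, 32.8 and 37.7 in the combination.

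Lysosomal and autophagy genes were higher in 26 of 37 and lower in 2, with a median of 0.52. CTSF, a cathepsin, was at 42.8, 38.8 and 37.7 against 167, 148 and 149.6 CPM (log2 fold change 1.96 ± 0.07 (SE), adjusted p = 3.46e-17), and CTSH at 54.2, 47.3 and 48.3 against 146, 127 and 138 (1.46). The cathepsin CTSB differed by 0.93. NPC2, which moves cholesterol out of the lysosome, was at 51.9, 47.7 and 49.1 against 117, 106 and 112 CPM (1.17). None of these 4 genes overlapped between the groups, and the combination was above all 9 others in 20 of the 37 members.

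Sterol synthesis was higher in 24 of 26 members and lower in none, with a median of 0.68, and here docetaxel 8 h was the group apart. HMGCS1, of the mevalonate pathway, was at 157, 174 and 164 CPM after docetaxel 8 h and 339, 359 and 350.2 in the combination (log2 fold change 1.08 ± 0.05 (SE), adjusted p = 1.60e-14). DMSO averaged 406 CPM and docetaxel 24 h 352. Docetaxel 8 h was below all 9 others in 22 of 26 genes, and the combination above all in 8. SCD, a fatty acid desaturase, was at 636, 688 and 661 against 1539, 1625 and 1594 CPM (1.26) with 1805 in DMSO, whereas ELOVL6, an elongase, was at 11.5, 11.1 and 11 against 39.6, 40.5 and 37.8 (1.81) with 16.5 in DMSO. Fatty acid synthesis had 11 higher and 3 lower of 19. ATF4 targets had 14 higher and 3 lower of 22, led by NUPR1 (1.98) and TRIB3 (0.93), and docetaxel 8 h was below all 9 others in 11. PHGDH, the first enzyme of serine synthesis, was at 648, 576 and 586 against 1730, 1538 and 1633 CPM (log2 fold change 1.44 ± 0.05 (SE), adjusted p = 3.33e-16), while the serine and one-carbon list as a whole had 6 higher and 8 lower of 14.

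EZH2 mRNA was lower in the combination, at 124, 123 and 125 CPM after docetaxel and 69.7, 69.5 and 62.8 (log2 fold change -0.88 ± 0.05 (SE), adjusted p = 3.39e-13), and DMSO averaged 111. Tazemetostat acts on the protein, so these levels do not measure its action. The other core subunits EED (-0.60) and SUZ12 (-0.38) were lower and the paralog EZH1 higher (0.51), and the PRC2 list had 9 lower and 3 higher of 14. Among HOX genes, developmental regulators that PRC2 is known to silence, 14 of 25 tested were higher and 2 lower. Their median was 0.64, from low levels. The combination was above all 9 others in 10 of the 25, and docetaxel 8 h below all in 7. HOXA11 was at 0.977, 0.618 and 0.748 against 3.59, 3.4 and 3.01 CPM (2.08). Other developmental factors had 27 higher and 13 lower of 47. TWIST1, a mesenchymal factor, was at 0.385, 0.0617 and 0.356 against 14.6, 14.6 and 18.3 CPM (log2 fold change 5.88 ± 0.23 (SE), adjusted p = 7.04e-16). The Iroquois genes IRX3, IRX5 and IRX6 were lower (-1.10, -1.23 and -1.64), with IRX5 at 200.1, 189.8 and 192 against 86.4, 79 and 83.4 CPM and 184 in DMSO. Only 47 of the 76 developmental genes in the files had enough counts to be tested, so they are not a sample of all.

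Genes of epithelial identity were lower in 10 of 16 and higher in 3, or 9 and 5 with library totals, with no change of 2-fold. KRT19 and EPCAM differed by -0.91 and -0.54. Keratins of basal and wound-edge epithelium were lower, 9 of 14 against 2 higher in the wound list. KRT5, a basal keratin, was at 2901, 2781 and 2861 CPM after docetaxel and 968, 882 and 956 in the combination (log2 fold change -1.61 ± 0.05 (SE), adjusted p = 2.15e-17). KRT14 and KRT17 differed by -0.74 and -0.86, and TP63, the basal master regulator, by -1.01. KRT17 averaged 565 CPM in DMSO, below the combination's 957, 862 and 887, and docetaxel 8 h was above all 9 others in 7 of the 14. The basal list was otherwise divided, 15 higher and 12 lower of 28. The luminal list had 11 higher and 8 lower of 24. GATA3, a luminal factor, was at 56.5, 58.2 and 60 against 128, 123 and 132 CPM (log2 fold change 1.13 ± 0.05 (SE), adjusted p = 1.38e-14), MLPH differed by 1.43, TBX3, a T-box factor, was at 0.207, 0.123 and 0.178 against 4.76, 4.95 and 5.72 (4.89), and FOXA1 was at 23.6, 24.1 and 20.6 against 22.2, 19.2 and 21.2 with adjusted p = 0.136. ELF5, a regulator of milk-producing cells, was near 0.433, 0.583 and 0.588 CPM in the combination (1.05), and its call was lost without docetaxel library A.

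Matrix and adhesion genes were higher. The mesenchymal list had 15 higher and 3 lower of 19, with a median of 1.70. With a minimum count of 50 it had 12 higher and 3 lower of 16, and the median was 0.66. FN1, fibronectin, was at 20.1, 26.9 and 23 against 100.4, 114 and 108 CPM (log2 fold change 2.20 ± 0.08 (SE), adjusted p = 8.59e-17), and VIM, vimentin, at 54.6, 45.7 and 48.6 against 178, 147 and 157 (log2 fold change 1.70 ± 0.07 (SE), adjusted p = 7.04e-16). TGFBI differed by 1.94, and the combination was above all 9 others in 13 of the 19. ITGB4, the integrin of hemidesmosomes, was at 343, 387 and 373 against 1225, 1155 and 1224 CPM (log2 fold change 1.71 ± 0.05 (SE), adjusted p = 1.30e-17), ITGA2, a collagen receptor, at 8.17, 11.8 and 9.51 against 56.5, 66.7 and 61.5 (2.65) and COL17A1 at 2.91. The hemidesmosome and laminin list had 10 higher and 3 lower of 15. ANKRD1, a YAP target, was at 2.31, 2.47 and 2.56 against 71, 69.8 and 70.9 CPM (log2 fold change 4.85 ± 0.09 (SE), adjusted p = 2.15e-21), CTGF at 105, 116 and 103 against 413, 433 and 462 (2.01), and 13 of 20 YAP targets were higher and 1 lower. Targets of SRF in the actin cytoskeleton went the other way, 13 lower and 3 higher of 19, or 11 and 5 with library totals, with ACTB at -0.93.

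Class I antigen presentation was divided between its parts. The heavy chains HLA-B, HLA-C (1.07), HLA-E (0.99) and HLA-F were higher, and so was the light chain B2M (0.69). HLA-B was at 163, 156 and 152 CPM after docetaxel and 488, 422 and 434 in the combination (log2 fold change 1.51 ± 0.05 (SE), adjusted p = 8.90e-17), and HLA-F at 13.7, 12.7 and 12.1 against 59.2, 49.1 and 50.4 (log2 fold change 2.04 ± 0.08 (SE), adjusted p = 2.48e-16). HLA genes are close paralogs whose reads the counting could have exchanged. Of the list, 10 were higher and 6 lower of 20, and PSME2, a proteasome activator, was lower (log2 fold change -0.79). HLA-F and PSME2 are shown because, of class I members with the letters of an interferon response element, they changed most and in opposite directions. Capitals mark GAAANNGAA on either strand, in chr6:29723184-29723433, plus strand, for HLA-F and chr14:24146611-24146860, minus strand, for PSME2 (RefSeq, GRCh38.p14).
HLA-F: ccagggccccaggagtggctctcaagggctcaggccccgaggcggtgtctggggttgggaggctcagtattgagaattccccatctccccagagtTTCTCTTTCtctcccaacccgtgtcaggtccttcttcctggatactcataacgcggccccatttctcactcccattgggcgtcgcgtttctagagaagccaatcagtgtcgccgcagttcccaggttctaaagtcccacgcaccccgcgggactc
PSME2: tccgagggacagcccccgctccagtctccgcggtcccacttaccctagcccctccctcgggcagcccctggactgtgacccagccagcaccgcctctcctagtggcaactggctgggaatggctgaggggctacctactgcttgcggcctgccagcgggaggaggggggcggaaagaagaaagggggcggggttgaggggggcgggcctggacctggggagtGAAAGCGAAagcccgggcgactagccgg
The letters were in 8 of 16 class I genes with a window, 19 of 27 interferon-stimulated genes, 8.41% of all and 7.40% of tested genes. Over 300 bases they were in 11 of the 16 class I genes.

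Interferon-stimulated genes had 18 higher and 7 lower of 37, and 4 lower with library totals. Docetaxel 8 h was below all 9 others in 11 of the 37, and the combination above all in 8. IFIT2, an antiviral protein, was at 1.98, 2.07 and 1.96 against 11.5, 9.55 and 11 CPM (log2 fold change 2.41 ± 0.14 (SE), adjusted p = 8.62e-13) and IFIT3 at 4.41, 5.77 and 5.24 against 15.5, 15.6 and 14.9 (1.58). The guanylate binding proteins GBP1 and GBP2 moved in opposite directions, with GBP2 at 7.87, 6.73 and 7.45 against 35.8, 32.4 and 32.1 CPM (2.19) and GBP1 lower as given above. Class II genes were higher in 7 of 9 tested, at low levels. HLA-DRB1 had no count after docetaxel and 86 over the combination, at least 28.8-fold, and CIITA, the class II activator, had adjusted p = 0.155. With a minimum count of 50 only 1 of these remained to be called. A list of cytokines together with NF-kB subunits, regulators and targets had 13 higher and 6 lower of 26. It had 13 and 3 of 23 when only the 6 libraries were fitted. With a minimum count of 50 it had 9 and 3 of 17. CCL2, a chemokine for monocytes, was at 0.178, 0.123 and 0.178 against 10.9, 10.2 and 11.5 CPM (log2 fold change 6.06 ± 0.22 (SE), adjusted p = 1.39e-16), CSF1, the macrophage growth factor, at 19.1, 16.6 and 17.5 against 71.3, 70.7 and 74.7 (2.02) and CXCL8, a chemokine for neutrophils, at 2.25, 2.69 and 2.42 against 8.76, 8.87 and 9.21 (1.87). Docetaxel 24 h averaged 12.3 CPM of CXCL8, above the combination.

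Genes of cell cycle arrest and death were mixed. CDKN1A, the inhibitor p21, was at 34.7, 31.7 and 29.5 against 99.5, 96.3 and 104 CPM (log2 fold change 1.64 ± 0.07 (SE), adjusted p = 8.35e-16), and CDKN1C, p57, at 3.43, 2.69 and 3.06 against 19.8, 16.3 and 20.9 (2.63). In the p53 target list 16 were higher and 5 lower of 27, with GDF15, a stress cytokine, at 2.26 and PLK2 opposite at -0.99. CCND1, cyclin D1, was higher (0.54). BH3-only genes, whose products start apoptosis, had 5 higher and 2 lower of 8. BMF was at 8.41, 7.57 and 7.05 against 19.6, 19.9 and 19.1 CPM (log2 fold change 1.34 ± 0.08 (SE), adjusted p = 1.44e-12), HRK at 8.38, 8.43 and 7.7 against 30.3, 33.2 and 31.2 (1.95) and BBC3, PUMA, at 1.47, while BID fell by 0.66. BCL2L11, BIM, was higher by 0.31 and averaged 39.1 CPM in DMSO, above the combination. The death ligand TNFSF10, TRAIL, was at 11.4, 9.45 and 12 against 55.4, 48.1 and 48.9 CPM (2.22). Death receptors and caspases had 6 higher and 9 lower of 23, and 7 and 7 with library totals. STAT3 was at 192, 213 and 208 against 201, 207 and 203 CPM with adjusted p = 0.967, and CD14 at 25.1, 23.6 and 25 against 28.5, 22.7 and 29.6 with adjusted p = 0.126.

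Genes near the action of docetaxel and xenobiotic metabolism are given for their levels. The tubulins were divided, 6 higher and 8 lower of 17. TUBA1A was at 34.6, 34.7 and 32.1 against 262, 233 and 257 CPM (log2 fold change 2.89 ± 0.06 (SE), adjusted p = 9.89e-21) and TUBB2B at 5.27, 4.91 and 5.42 against 42, 41.1 and 35 (2.92), while the abundant TUBB was at 3787, 3266 and 3532 against 2211, 2095 and 2083 (-0.73). Tubulins are near-identical paralogs, so the division of reads among them is uncertain. ABCB1, the efflux pump P-glycoprotein, was at 0.918, 1.02 and 1.1 against 4.7, 5.47 and 5.52 CPM (2.37). CYP1B1, a target of the aryl hydrocarbon receptor, was at 293, 332 and 335 against 73.6, 79.1 and 76.9 CPM (log2 fold change -2.06 ± 0.06 (SE), adjusted p = 2.14e-18), where DMSO averaged 106. CYP1A1, the receptor's best-known target, was at 32.1, 32.9 and 37 against 21.9, 21.9 and 20.4 CPM (log2 fold change -0.67 ± 0.07 (SE), adjusted p = 3.62e-08), but DMSO averaged only 1.25 and docetaxel 24 h 2.28, so both groups compared stood above the others. The receptor's list had 5 higher and 6 lower of 11.

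Signalling lists outside these were higher on balance. Wnt genes had 18 higher and 9 lower of 34, with DKK1, a secreted inhibitor, at 63, 67.2 and 73.9 against 284, 278 and 293 CPM (log2 fold change 2.07 ± 0.06 (SE), adjusted p = 6.28e-19) and the receptor FZD8 at 5.05. BMP and TGF-beta genes had 19 higher and 5 lower of 27. The BMP inhibitor NOG was at 0.651, 0.556 and 1.03 against 9.22, 9.9 and 9.74 CPM (3.70), and the BMP targets ID1 and ID3 were lower (-1.29 and -1.16). Notch genes had 11 higher and 4 lower of 18. Of replication histones, read here only as far as they are polyadenylated, 10 of 19 were higher and 1 lower, and HIST1H2AC averaged 104 CPM after docetaxel 24 h against 46.6, 40 and 39.5 in the combination.

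Markers of other cell types were low, and in 3 of 4 lists their sums were higher in every combination library than in every docetaxel 8 h library. All 6 tested fibroblast markers of 11 were called higher, and the summed level of the 11 was 13.0 to 15.2 CPM after docetaxel and 29.9 to 31.9 in the combination, beside 25.7 to 28.1 in DMSO. LUM, lumican, was at 4.61, 4.14 and 3.76 CPM in the combination with no count in the other 9 libraries. Of 7 tested endothelial markers, 6 were higher, with sums of 21.1 to 26.0 and 56.2 to 59.1 CPM and 32.4 to 34.7 in DMSO. KDR alone was at 36.5, 37 and 35.8 CPM in the combination. Immune markers, 2 higher and none lower of 3 tested, summed to 24.7 to 25.8 and 40.4 to 47.0 CPM but to 56.2 to 59.3 in DMSO, so docetaxel 8 h was the low group, with CSF1R at 2.1, 2.19 and 2.39 against 15.6, 15.5 and 15.2 (2.79), and CD3D, a T cell marker, had 0 counts in both groups. Adipocyte markers, 2 higher and 1 lower of 5 tested, overlapped between the groups, with sums of 9.80 to 11 and 10.97 to 12.3 CPM. The epithelial list summed to 12106 to 12997 CPM after docetaxel, 9715 to 10563 in the combination and 11445 to 11514 in DMSO, so the combination was the low group. The part of other cells in the results above was not tested, and in bulk libraries more cells of a type and more RNA per cell cannot be told apart.

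Further motifs were searched in the windows of 250 bases with the same rule, and not every list stood above the share in all genes or in the tested genes. GTAAACA, the FOXO letters, was in 1 of 26 FOXO targets, 3.66% of all genes and 3.09% of tested genes, and over 300 bases in 3 of 26. TCACNCCAC, from the sterol response element, was in 1 of 19 sterol genes, 1.09% of all and 1.17% of tested genes. TGANTCA was in none of 18 immediate early genes, and over 300 bases in 1. CACGTG depended on the window. Over 250 bases it was in 4 of 24 ribosome biogenesis genes and 8 of 24 lysosomal genes, beside 7.73% of all and 10.98% of tested genes. Over 300 bases it was in 12 and 8 of 24, beside 8.78% and 12.2%. TGATGNAA was in 5 of 20 ATF4 targets against 3.89% of all and 2.46% of tested genes, and GGAATG in 7 of 15 YAP targets against 14.3% and 13.3%. GCGTG was in 5 of 9 receptor-battery genes (55.6%), near the 51.5% of tested genes and above the 36.2% of all. No test was made of these shares, and in the lists without matches the absence says only that the letters are not in these windows.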

How the data were processed

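RNA was measured in 12 libraries of MDA-MB-468 cells, 3 per group, after poly-T selection, per the labels' protocols. HISAT2 2.0.5, fastp, DESeq2 and hg38 are named in the submitters' processing notes, while no source used here names the counter or its annotation. The deposited files hold whole-number read counts per gene symbol for each library, as the authors made them. The deposited series table holds signal, counts divided by size factors, from which the authors' size factors were read for 1 alternative. Of 58735 symbols, 58708 matched GENCODE 29, and 27 shaped like dates (at most 0.204% of counts) did not.

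The counts of all 12 libraries were fitted in edgeR 4.0.16 (R 4.3.3) with group means, TMM scaling and a minimum count of 10 (filterByExpr), leaving 8 residual degrees of freedom. The contrast was the combination minus docetaxel 8 h, two-sided, with Benjamini-Hochberg adjustment over 17780 genes. The script was tested on simulated counts. DESeq2 1.42.0, other scalings and filters, a replicate block and leaving out each library were the alternatives. Counts between replicates of a group differed by more than sampling noise (chi-square per degree of freedom of 4.07 to 12.7), so each was kept as a library of its own.

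The comparison, gene lists and members were chosen with earlier results of these data known. Named genes were the 15 largest rises and 15 largest falls among protein-coding genes averaging at least 5 CPM in the higher group without overlap, up to 5 members of each list by adjusted p, all members of lists of at most 15, and a list of genes by name. Exceptions are said to be so in the text. Promoter windows came from RefSeq (GRCh38.p14) by symbol and matched 11576 of 17728 tested genes with a unique symbol. A gene with several starts counted if any window matched. The motif spellings and both window lengths were settled after other spellings had been looked at in these lists, and 12 spellings in 19 pairs with a list were searched in all. For a gene without counts in a group the fold is a bound against 3 counts over that group. A few genes chosen by that rule are left out of the text.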

Additional observations from a re-analysis of the deposited data

How the results depend on the processing

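The balance of calls depended on scaling. With library totals 7224 genes were higher and 4452 lower, with DESeq2 5844 and 5581, and with the authors' size factors 5997 and 5794. Without a filter on low counts the counts were 6514 and 5996 of 35561 genes, and with a minimum count of 50 they were 5177 and 5023 of 13887. Only the 6 libraries gave 5953 and 5361. Leaving out 1 library at a time gave 5808 to 6001 higher and 5389 to 5644 lower. The difference in mitochondrial share ranged from -0.465 to 0.333 percentage points when 1 library was left out, and so had no stable sign. Across 406 named genes and 6037 values under an alternative, 5924 kept their side of the threshold, 74 lost the call and 39 gained one. None changed direction where either fit called the gene, and direction was not compared where neither did. Library totals took 14 calls away and gave 9.

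Whether the letters A, B and C pair the libraries is not stated and was not decided here. Deviations from the group means correlated at 0.493 for A with A and 0.463 for B with B. They correlated at -0.5 and -0.495 for the crossed pairs of A and B, and at -0.0511 for C with C. Deviations of a group's libraries from their mean are tied to each other, so these values do not decide it. With the replicate block the calls were 6123 higher and 5742 lower, and with the block in only the 6 libraries 6352 and 5811.

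Genes under 1 CPM rest on few counts, so their folds are loose, and a gene that passed the count filter only through the combination had to be higher there. Drug, hours, plate and medium are tied to the groups and cannot be told apart at any depth.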
